A study of Mus musculus with 6 samples.

Results

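Il20ra, Il22ra2 and Il12rb2 are cytokine receptor genes whose signal was lower in K14ΔNLef1 epidermis than in wild type epidermis. They are described here with 7 subunits that share a receptor, a ligand or a close relationship with them, namely Il20rb, Il22ra1, Il10ra, Il10rb, Il12rb1, Ifngr1 and Ifngr2. Of these 10 genes 9 were measured, out of 11280 genes in all. They had 83 probe sets annotated to exactly 1 of them, 32 of these in Il20ra, Il22ra2 and Il12rb2, out of 109751 probe sets with 1 gene symbol. Il20rb was not analysed here. The 3 named first were picked because of their difference between the genotypes, so their values in this comparison are a description and carry no test. The other subunits were added because of their place in the receptors and are given with the test.

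The samples were keratinocytes of back-skin epidermis from female mice of 9.5 weeks on a C57BL6/CBA background, not fractionated into keratinocyte subsets. There were 3 K14ΔNLef1 samples and 3 wild type samples, called biological replicates in the labels, each on 1 mouse exon array. In K14ΔNLef1 mice the keratin 14 promoter, active in basal keratinocytes, drives a Lef1 without the N-terminal end. The labels do not say whether a sample came from 1 mouse or a pool, so p-values measure only the spread between these samples. Lef1, the gene of the transgene, had gene values of 11.11, 11.13 and 11.24 on the K14ΔNLef1 arrays, against 5.81, 7.02 and 6.26 on the wild type arrays. K14ΔNLef1 replicate 1 was the dimmest array, with a median intensity of 154.2, against 190.0 to 203.2 on the other 5. Keratinocyte markers were lower in 11 of 12 cases, where 6450 of all 11280 genes were lower. None passed the test and 2 had an unadjusted p under 0.05, where 1.16% and 11.8% of all genes did. Of the 12 markers 5 were lower without overlap between the arrays of the genotypes, as were 11.8% of all genes. The mean log2 intensity of these markers was 10.66 to 11.22 on the K14ΔNLef1 arrays and 11.25 to 11.36 on the wild type arrays. A gene value below is the mean log2 intensity of the gene's probe sets on an array. A difference is the log2 gene value in K14ΔNLef1 minus that in wild type, with the SE of the limma fit, and SDs are over 3 arrays per genotype. Intervals are at the 95% level.

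Class II cytokine receptors work as pairs of different subunits at the cell surface, which pass the signal to Jak kinases and Stat factors. In the skin, Il20ra pairs with Il20rb to bind the ligands Il19, Il20 and Il24 on keratinocytes, and Il22ra1 pairs with Il10rb to bind Il22, a lymphocyte cytokine that acts on epithelia. Il22ra2 encodes a secreted decoy that binds Il22 and keeps it from its receptor. Il12rb2 belongs to the class I family and forms the receptor of Il12 with Il12rb1, best known in T cells and natural killer (NK) cells. The receptor of interferon gamma consists of Ifngr1 and Ifngr2.

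The promoter windows of Il20ra and Il12rb2 are shown because both genes were much lower in the transgenic epidermis, and that of Il22ra1 because it is an epithelial receptor of the same family that was not. Each runs from 250 bases before to 50 bases after the gene start, in RefSeq's table for GRCm38.p6. That table held such a window for 6 of the 10 genes. Capitals mark matches to 3 motifs searched on both strands, namely Tcf/Lef (CTTTG followed by AA, TT, AT or TA), AP-1 (TGANTCA) and Stat (TTCNNNGAA).
Il20ra (chr10:19712337-19712636, plus strand): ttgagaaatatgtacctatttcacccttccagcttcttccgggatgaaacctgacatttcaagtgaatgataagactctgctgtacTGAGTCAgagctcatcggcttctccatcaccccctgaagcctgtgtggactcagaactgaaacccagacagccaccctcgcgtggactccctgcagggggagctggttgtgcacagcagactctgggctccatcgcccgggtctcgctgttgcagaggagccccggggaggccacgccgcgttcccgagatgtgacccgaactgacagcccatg
Il12rb2 (chr6:67376139-67376438, minus strand): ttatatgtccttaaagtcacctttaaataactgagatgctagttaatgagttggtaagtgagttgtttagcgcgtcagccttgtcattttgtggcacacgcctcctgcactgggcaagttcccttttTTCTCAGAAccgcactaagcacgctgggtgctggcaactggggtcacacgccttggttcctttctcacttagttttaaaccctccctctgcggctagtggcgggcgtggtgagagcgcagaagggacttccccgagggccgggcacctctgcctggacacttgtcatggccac
Il22ra1 (chr4:135727909-135728208, plus strand): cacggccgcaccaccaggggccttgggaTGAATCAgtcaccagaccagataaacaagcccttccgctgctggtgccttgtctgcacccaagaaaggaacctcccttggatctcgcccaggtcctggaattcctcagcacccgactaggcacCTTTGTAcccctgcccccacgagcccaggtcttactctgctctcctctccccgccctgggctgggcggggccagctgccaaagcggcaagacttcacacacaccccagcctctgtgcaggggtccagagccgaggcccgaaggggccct
The Il20ra window held 1 AP-1 match and the Il12rb2 window held 1 Stat match. Among these 3 windows, a Tcf/Lef match was in that of Il22ra1 alone, beside 1 AP-1 match that does not overlap it. Of 32851 windows of this length in the table, 16.9% held a Tcf/Lef match, 7.8% an AP-1 match and 8.3% a Stat match. The windows of Ifngr1, Ifngr2 and Il20rb held none of the 3 motifs. These are matches of letters in a short window.

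Il20ra, a subunit of the receptor for Il19, Il20 and Il24, was the gene with the third largest decrease of all. Its gene values were 6.07, 6.44 and 5.83 on K14ΔNLef1 arrays 1, 2 and 3, against 9.39, 9.68 and 9.96 on wild type arrays 1, 2 and 3. Every transgenic array lay far below every wild type array, and the gap between the groups was many times the spread within either. The means were 6.11 ± 0.31 in K14ΔNLef1 and 9.68 ± 0.28 in wild type (SD, n = 3), a difference of -3.56 (SE 0.23), or 11.8-fold lower. The difference was -3.54 without K14ΔNLef1 replicate 1.

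Il22ra2, the decoy of Il22, had gene values of 5.44, 6.01 and 6.52 on the K14ΔNLef1 arrays, against 7.59, 8.68 and 8.75 on the wild type arrays. The groups did not overlap, although both spread more than for Il20ra. The means were 5.99 ± 0.54 in K14ΔNLef1 and 8.34 ± 0.65 in wild type (SD, n = 3), a difference of -2.35 (SE 0.38), or 5.10-fold lower. Without K14ΔNLef1 replicate 1, where the gene was lowest, the difference was -2.08.

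Il12rb2, the signalling subunit of the Il12 receptor, had gene values of 6.65, 8.30 and 7.46 on the K14ΔNLef1 arrays, against 9.86, 9.38 and 9.71 on the wild type arrays. The wild type arrays lay close together and the transgenic arrays spread widely below them. The means were 7.47 ± 0.83 in K14ΔNLef1 and 9.65 ± 0.24 in wild type (SD, n = 3), a difference of -2.18 (SE 0.38), or 4.53-fold lower. Without K14ΔNLef1 replicate 1 it was -1.77.

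All 3 genes were among the 94 that fell over all genes (limma, Benjamini-Hochberg adjusted p at or under 0.05), which are 0.833% of those tested. This is how they came to be picked, so nothing is read from it. Among all genes, 11.8% had lower values on every K14ΔNLef1 array than on any wild type array. The table has no detection call for single probe sets. The K14ΔNLef1 means of Il20ra and Il22ra2 lay below 6.39, the limit under which the 2820 dimmest genes lie, so how much of the remaining signal is background was not tested. In these bulk samples, fewer cells that express a gene and less RNA per cell cannot be told apart.

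**Figure D1:**
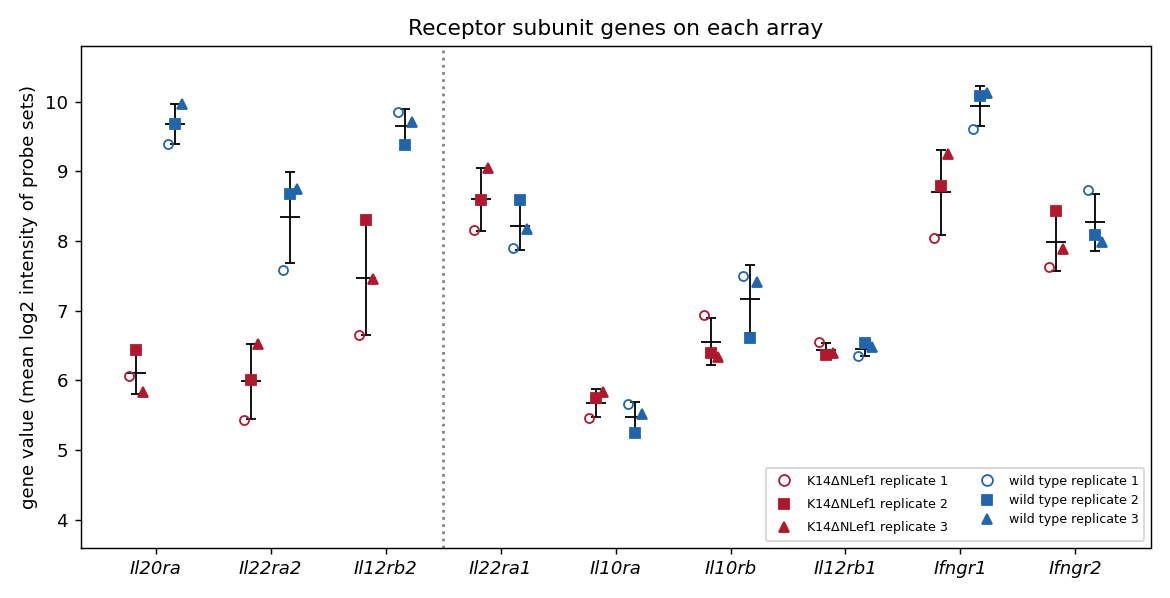
Gene values (mean log2 intensity of a gene's probe sets) of 9 receptor subunit genes, with K14ΔNLef1 arrays in red left of wild type arrays in blue, marker shapes for replicates, and black bars for the mean and SD of 3 arrays. Left of the dotted line, Il20ra, Il22ra2 and Il12rb2 show no overlap between genotypes, and right of it only Ifngr1 does so among the 6 other subunits.

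The decrease was present in all probe sets of Il22ra2 and Il12rb2, and in Il20ra with 1 exception. Of the 10 probe sets of Il20ra, 9 were lower on every K14ΔNLef1 array than on any wild type array, where 9.46% of all probe sets were, with differences of -5.08 to -3.16. The largest was in probe set 4920164, at 4.61, 5.91 and 4.33 on the K14ΔNLef1 arrays, against 9.98, 10.002 and 10.10 on the wild type arrays. Probe set 4933032 stood apart from the other 9, at 9.89, 9.42 and 8.86 on the K14ΔNLef1 arrays, against 9.30, 9.80 and 9.56 on the wild type arrays. Its groups overlapped, with a difference of -0.16. The median of the probe sets rather than their mean gave Il20ra a difference of -3.96. The positions of the probe sets along Il20ra were not analysed here.

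In Il22ra2, all 5 probe sets were lower without overlap, by unequal amounts from -4.06 to -1.23. Probe set 5286295 had the largest difference, at 3.58, 4.66 and 6.22 on the K14ΔNLef1 arrays, against 8.02, 9.57 and 9.05 on the wild type arrays. The smallest was in probe set 5339586, at 6.94, 7.64 and 7.14 on the K14ΔNLef1 arrays, against 7.95, 8.46 and 8.995 on the wild type arrays. With few probe sets and such unequal differences, the summary matters for this gene, and the median of its probe sets gave -3.13.

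Il12rb2 had the most even decrease. All 17 of its probe sets were lower without overlap, with differences of -2.65 to -1.15 and a median of -2.16. The transgenic arrays were uneven in probe set 4669678, at 7.46, 10.15 and 7.31 on the K14ΔNLef1 arrays, against 11.31, 10.30 and 11.05 on the wild type arrays, with K14ΔNLef1 replicate 2 just below the lowest wild type array.

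**Figure D2:**
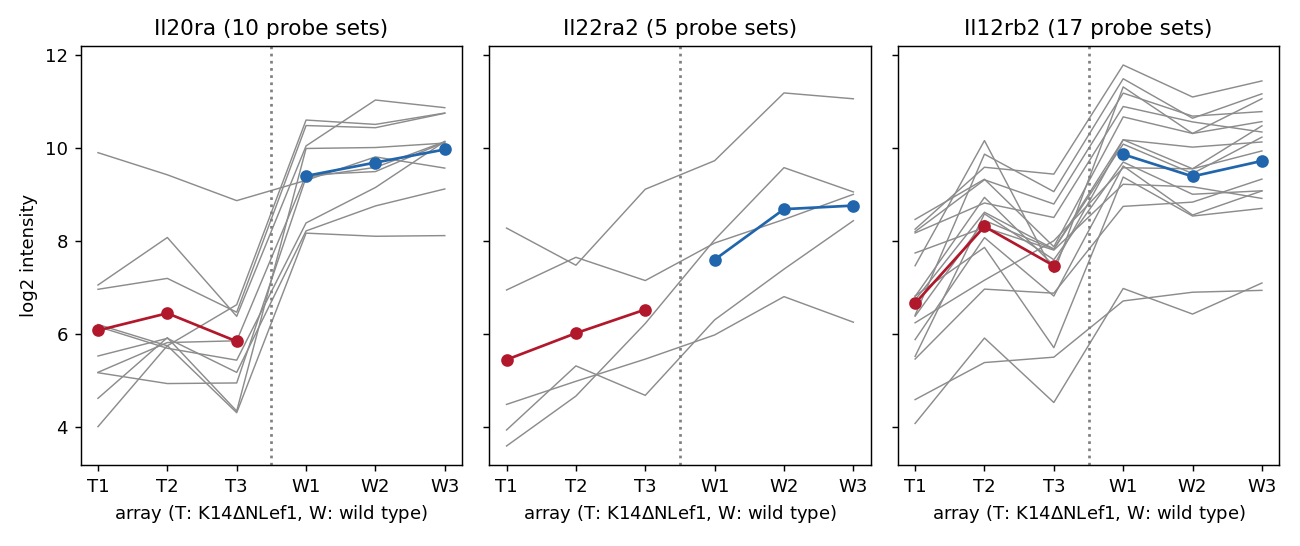
Log2 intensity of each probe set (grey lines) of Il20ra, Il22ra2 and Il12rb2 on the 3 K14ΔNLef1 arrays (T1 to T3) and the 3 wild type arrays (W1 to W3), with the gene value in red and blue. In Il20ra 1 line, probe set 4933032, stays at a similar height in both genotypes while the other 9 are lower in K14ΔNLef1.

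None of the 6 measured partner and sister subunits passed the test (limma, adjusted over all genes), where 1.16% of all genes did, and 1 of them, Ifngr1, had an unadjusted p under 0.05, where 11.8% of all genes did. Their median difference was -0.15, beside -0.05 for all genes. Il22ra1, the receptor subunit that binds Il22 and also pairs with Il20rb, was at 8.15, 8.60 and 9.06 on the K14ΔNLef1 arrays, against 7.90, 8.59 and 8.18 on the wild type arrays. The groups overlapped, with a difference of 0.38 (95% interval -0.26 to 1.02, limma adjusted p of 0.662). Of the 11 Il22ra1 probe sets 10 were higher, by up to 0.97, and 1 of them without overlap, where 5.11% of all probe sets were higher without overlap.

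Il10rb, the second subunit of the receptors for Il22 and Il10, was at 6.94, 6.40 and 6.33 on the K14ΔNLef1 arrays, against 7.50, 6.60 and 7.41 on the wild type arrays. The groups overlapped through wild type replicate 2, and the difference of -0.61 (95% interval -1.27 to 0.05) did not pass (limma adjusted p of 0.472). Of the 7 Il10rb probe sets 6 were lower, 1 of them without overlap, where 9.46% of all probe sets were lower without overlap. The brightest, 4563488, was higher by 0.25, with means of 11.63 in K14ΔNLef1 and 11.38 in wild type. Il10ra, which binds Il10 and acts mainly in immune cells, was among the 2820 dimmest genes. Its means were 5.68 ± 0.20 in K14ΔNLef1 and 5.47 ± 0.21 in wild type (SD, n = 3), with a difference of 0.21 (95% interval -0.24 to 0.66).

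Il12rb1, the other subunit of the Il12 receptor and a subunit of the Il23 receptor, was at 6.55, 6.36 and 6.39 on the K14ΔNLef1 arrays, against 6.35, 6.54 and 6.47 on the wild type arrays. These values overlapped closely, with a difference of -0.02 (95% interval -0.40 to 0.36, limma adjusted p of 0.977) whose sign turned to 0.09 when the array medians were made equal. Its difference is given beside that of Il12rb2 without a test between them, because Il12rb2 was picked on this comparison. Within Il12rb1, probe set 4833076 alone was lower without overlap, at 5.22, 5.14 and 5.28 on the K14ΔNLef1 arrays, against 6.24, 6.39 and 6.91 on the wild type arrays. It did not pass over all probe sets (limma adjusted p of 0.200), where 0.19% did, and it was singled out after its values were seen. Of the 8 probe sets 4 were higher, 1 of them, 4745685, without overlap (difference 0.50, limma adjusted p of 0.705). Among all probe sets, 9.46% were lower and 5.11% higher without overlap.

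Ifngr1, the subunit that binds interferon gamma, was the subunit nearest to the threshold. It was at 8.05, 8.80 and 9.25 on the K14ΔNLef1 arrays, against 9.60, 10.08 and 10.12 on the wild type arrays. The groups did not overlap, as in 18.7% of all genes in either direction, and the means were 8.70 ± 0.60 in K14ΔNLef1 and 9.93 ± 0.29 in wild type (SD, n = 3). The difference of -1.24 (SE 0.31, 95% interval -1.95 to -0.52) did not pass (limma adjusted p of 0.145), and K14ΔNLef1 replicate 1 had the lowest value. Without that array the difference was -0.91 (limma adjusted p of 0.109). Of its 10 probe sets, 8 were lower without overlap, from -2.61 in probe set 5364562 to -0.86, where 9.46% of all probe sets were lower without overlap, and none of the 10 passed over all probe sets (limma), where 0.19% did. Probe set 4703429 went the other way, at 7.95, 7.87 and 7.81 on the K14ΔNLef1 arrays, against 7.49, 7.53 and 7.77 on the wild type arrays. Ifngr2, which completes the receptor, was at 7.62, 8.43 and 7.89 on the K14ΔNLef1 arrays, against 8.74, 8.09 and 7.98 on the wild type arrays. These overlapped, with a difference of -0.29 (95% interval -0.93 to 0.36).

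**Figure D3:**
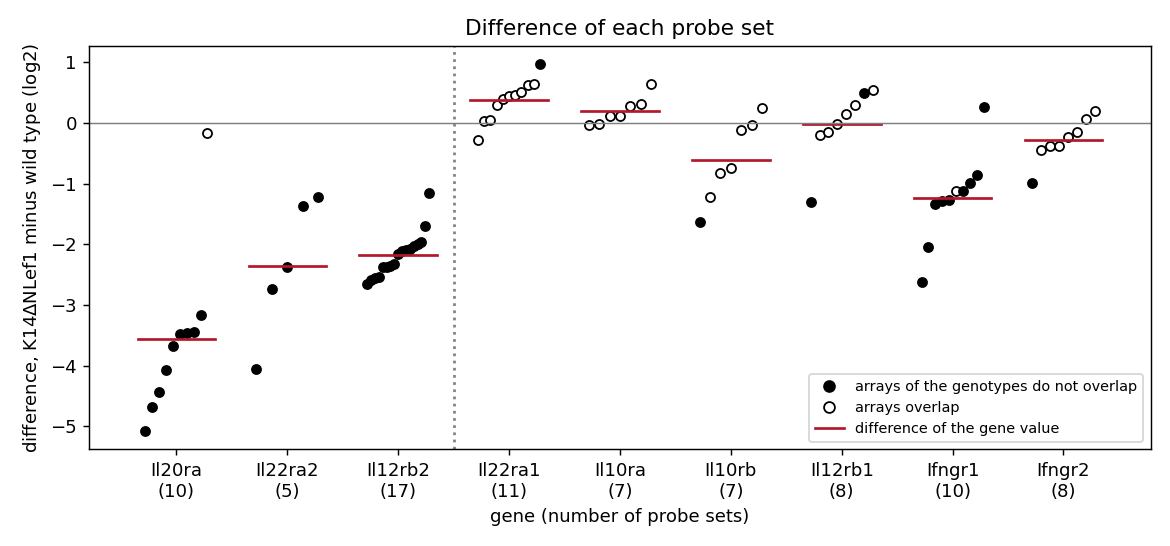
Difference of each probe set (K14ΔNLef1 minus wild type, log2) in 9 receptor subunit genes, filled where the arrays of the genotypes do not overlap, with the difference of the gene value as a red line. All probe sets of Il22ra2 and Il12rb2 and 9 of 10 of Il20ra are filled and below 0, as are 8 of 10 of Ifngr1, while those of the other 5 genes scatter around 0 or lie mostly open.

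Il20ra, Il22ra2 and Ifngr1 are neighbours on chromosome 10, in the order Ifngr1, Il22ra2, Il20ra among protein-coding genes. On the outer sides, Olig3, a neural transcription factor gene beside Ifngr1, had a difference of -0.40 (limma adjusted p of 0.583) and Slc35d3, a solute carrier gene beside Il20ra, one of -0.11 (limma adjusted p of 0.929). Both were among the 2820 dimmest genes, and their arrays overlapped. Beyond Slc35d3, Pex7, which imports proteins into peroxisomes, was at 6.99, 7.87 and 8.57 on the K14ΔNLef1 arrays, against 8.70, 8.61 and 8.87 on the wild type arrays. Its groups did not overlap, and the difference of -0.92 did not pass (limma adjusted p of 0.367). Without K14ΔNLef1 replicate 1 it was -0.51, and with array weights it was -0.81 and passed (limma adjusted p of 0.0237). Size thus varied within this stretch, from -3.56 in Il20ra to -0.11 in Slc35d3 next to it, which turned to 0.27 without wild type replicate 3.

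Il12rb2 lies on chromosome 6. The nearest measured genes on one side were Serbp1, an RNA-binding protein gene, with a difference of -0.28 (limma adjusted p of 0.688), and Gadd45a, a growth arrest and DNA damage gene, with -1.17 (limma adjusted p of 0.199). Gadd45a was at 5.97, 7.28 and 6.75 on the K14ΔNLef1 arrays, against 8.06, 7.49 and 7.95 on the wild type arrays, without overlap. On the other side the nearest measured were Rpia, of the pentose phosphate pathway, with -0.13, and Eif2ak3, a kinase of the unfolded protein response, with -0.63, after 2 protein-coding genes not analysed here. Neither passed (limma adjusted p of 0.907 and 0.497).

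**Figure D4:**
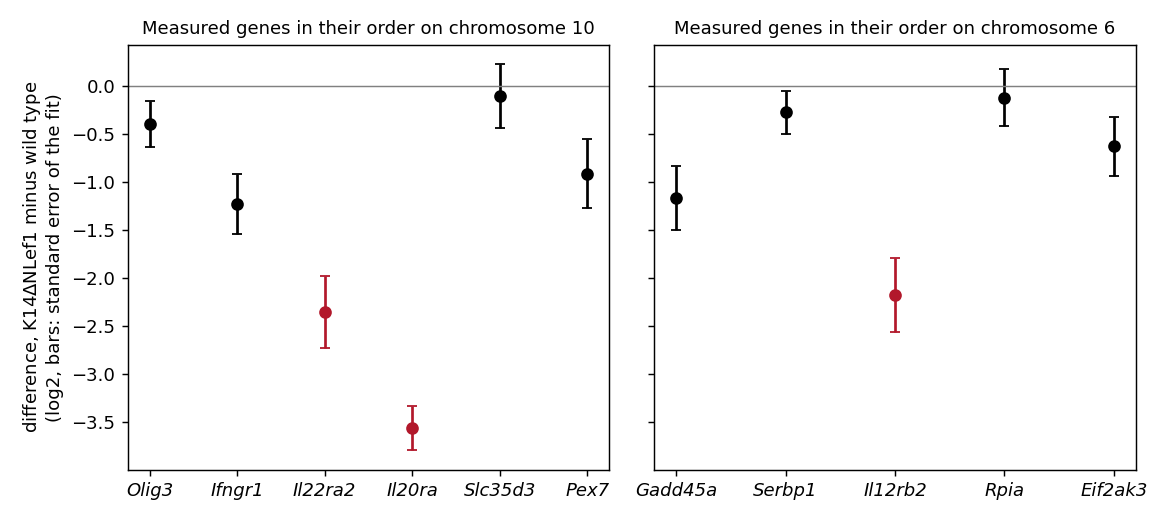
Difference (K14ΔNLef1 minus wild type, log2, bars for the SE of the fit) of Il20ra, Il22ra2 and Il12rb2 in red and of the nearest measured protein-coding genes in black, placed by gene order and not by distance. On chromosome 10 the difference is largest in Il20ra at -3.56 and is -0.11 in Slc35d3 beside it.

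The ligands of these receptors gave no call in either direction. Of 11 listed, 8 were measured, 5 were higher and 3 lower. None passed and none had an unadjusted p under 0.05 (limma), where 1.16% and 11.8% of all genes did. Il22, Ifnl2 and Ifnl3 were not analysed here. The smallest p were those of Il12b, the shared chain of Il12 and Il23, and of Il24. Il12b was at 7.66, 7.16 and 7.36 on the K14ΔNLef1 arrays, against 6.96, 7.32 and 7.05 on the wild type arrays (difference 0.28, limma adjusted p of 0.651). Il24, a ligand of Il20ra and Il20rb, was at 6.15, 6.22 and 5.998 on the K14ΔNLef1 arrays, against 6.20, 6.25 and 6.68 on the wild type arrays (difference -0.25, limma adjusted p of 0.679). Both overlapped. Ifng, the ligand of Ifngr1 and Ifngr2, had a difference of 0.09, Il19 one of 0.19 and Il20 one of -0.08. The ligands Il10, Il19, Il20 and Il24 were among the 2820 dimmest genes. How much of their signal is background was not tested.

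Among other cytokine receptors none passed, of 4 class II and 21 class I receptors measured, where 1.16% of all genes did. In class II, Ifnar1, of the type I interferon receptor, had a difference of -0.36 (limma adjusted p of 0.634). Ifnlr1, of the interferon lambda receptor, had one of -0.20 (limma adjusted p of 0.681) with 6.65, 6.62 and 6.69 on the K14ΔNLef1 arrays, against 6.84, 6.86 and 6.86 on the wild type arrays, a small but complete separation. No class II receptor had an unadjusted p under 0.05, and 5 class I receptors did, 4 of them lower (limma), where 11.8% of all genes did. The class I gene nearest to the threshold was Il4ra, the shared chain of the Il4 and Il13 receptors. It was at 7.22, 7.53 and 7.72 on the K14ΔNLef1 arrays, against 8.88, 8.30 and 8.57 on the wild type arrays, with a difference of -1.09 (SE 0.22, limma adjusted p of 0.0666). The groups did not overlap, and it did pass when the array medians were made equal (limma adjusted p of 0.0396). Il2ra, the inducible chain of the Il2 receptor in T cells, went the other way, at 5.83, 6.44 and 6.22 on the K14ΔNLef1 arrays, against 5.32, 5.35 and 5.28 on the wild type arrays. Its difference of 0.85 did not pass (limma adjusted p of 0.121), but did without K14ΔNLef1 replicate 1 (1.01, limma adjusted p of 0.0224). Il2ra was among the 2820 dimmest genes. Median differences were -0.18 in class II and 0.06 in class I, and without K14ΔNLef1 replicate 1 both signs turned, to 0.05 in class II and -0.03 in class I.

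Downstream of the receptors, none of 21 measured Jak, Stat, Socs, Pias and phosphatase genes passed, where 1.16% of all genes did. An unadjusted p under 0.05 (limma) was found in 1, where 11.8% of all genes had one. Of the 21, 17 were lower, with a median of -0.13, where 6450 of all 11280 genes were lower. Relative to wild type the list deviated by -0.49 on K14ΔNLef1 replicate 1, and by less than 0.05 on replicates 2 and 3. The smallest p was that of Ptpn1, a phosphatase that acts on Jak kinases, at 7.71, 8.27 and 8.13 on the K14ΔNLef1 arrays, against 8.83, 8.61 and 8.66 on the wild type arrays (difference -0.67, limma adjusted p of 0.222). Stat2, of the interferon pathway, followed with -0.45 (limma adjusted p of 0.473). Jak2 and Tyk2, the kinases of the Il12 receptor, had differences of -0.50 and -0.03. Stat4, its main Stat in T cells, had one of 0.12 and was among the 2820 dimmest genes. That of Jak2 was -0.07 without K14ΔNLef1 replicate 1, and that of Tyk2 turned to 0.11 without wild type replicate 2 and to 0.03 without K14ΔNLef1 replicate 3.

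Genes that Il20 and Il22 are known to induce in keratinocytes gave no call. None of 16 measured passed and 1 had an unadjusted p under 0.05 (limma), where 1.16% and 11.8% of all genes did. The list had a median of 0.09, with 9 higher, where 4830 of all 11280 genes were higher. Most of the list, S100a8, S100a9 and Mmp3 included, was among the 2820 dimmest genes. Whether a decrease could show at such levels was not tested. In S100a8 and S100a9 the difference rested on 1 transgenic array. S100a8, of an antimicrobial calcium-binding pair, was at 5.44, 5.06 and 9.14 on the K14ΔNLef1 arrays, against 4.49, 4.64 and 4.599 on the wild type arrays, and its partner S100a9 was at 6.29, 5.03 and 8.44 on the K14ΔNLef1 arrays, against 4.53, 5.94 and 5.22 on the wild type arrays. K14ΔNLef1 replicate 3 was far above the others in both, which were chosen after their values were seen. Cxcl1, a neutrophil chemokine read by 1 probe set, was at 7.47, 7.74 and 9.61 on the K14ΔNLef1 arrays, against 6.23, 6.69 and 7.16 on the wild type arrays (difference 1.58, limma adjusted p of 0.286). Mmp3, a matrix protease, had a difference of -0.47 (limma adjusted p of 0.458).

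Of 18 measured interferon gamma targets none passed, and 4 had an unadjusted p under 0.05, all of them lower (limma). Of all genes 1.16% passed and 11.8% had such a p. The list had a median of -0.12, with 12 lower. Psmb9, of the immunoproteasome, was at 10.02, 10.65 and 10.21 on the K14ΔNLef1 arrays, against 11.11, 10.97 and 10.98 on the wild type arrays (difference -0.73, limma adjusted p of 0.197). Tap2, a peptide transporter of antigen presentation, was at 7.11, 7.25 and 7.01 on the K14ΔNLef1 arrays, against 7.65, 7.62 and 7.66 on the wild type arrays (difference -0.52, limma adjusted p of 0.244). Neither overlapped. Without K14ΔNLef1 replicate 1, 9 of the 18 were lower and the median was 0.02. Without that array Cxcl9, a chemokine induced by interferon gamma and named after its values were seen, rose, with a difference of 0.995 (limma adjusted p of 0.0241).

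Lymphocytes also express Il12rb2, and their markers differed between the arrays. T cell markers averaged -0.06, 1.27 and 0.76 relative to the wild type mean on K14ΔNLef1 arrays 1, 2 and 3, against 0.35, -0.26 and -0.10 on wild type arrays 1, 2 and 3. NK cell and type 1 lymphocyte markers averaged 0.13, 1.11 and 0.52 on the K14ΔNLef1 arrays, against 0.30, -0.19 and -0.11 on the wild type arrays. Within each genotype the arrays had the same order for Il12rb2 as for both lists, and as for the Langerhans cell and antigen presentation markers. On the K14ΔNLef1 arrays this order was also that of the interferon gamma targets, the Jak and Stat genes and the melanocyte markers. It was also that of the other class I and class II receptors there. On the wild type arrays these further lists had other orders. The T cell, NK cell and Langerhans cell lists share their order with each other, so they do not count separately. Nothing is read from orders of 3 arrays. Between genotypes Il12rb2 was lower and most of the T cell, NK cell and Langerhans cell markers were higher. In all, 14 of 16 T cell and 11 of 12 NK cell markers were higher, and their medians were 0.72 and 0.59. Without K14ΔNLef1 replicate 1 these medians were 1.21 and 0.95. No T cell marker passed, with 6 at an unadjusted p under 0.05, where 11.8% of all genes were. Without K14ΔNLef1 replicate 1, 2 T cell markers rose, Cd2 by 1.22 (limma adjusted p of 0.0447) and Gzmc by 2.34 (limma adjusted p of 0.0241), both named after their values were seen. Of the NK cell markers 3 had an unadjusted p under 0.05 and 1 passed over all arrays, Il18rap, a subunit of the Il18 receptor, named after its values were seen. It was at 6.26, 6.44 and 6.52 on the K14ΔNLef1 arrays, against 5.48, 5.48 and 5.54 on the wild type arrays. It rose by 0.91 (SE 0.17, limma adjusted p of 0.0486) and was, like Gzmc, among the 2820 dimmest genes. Leaving out each array in turn, it did not pass in 5 of 6 fits (limma adjusted p of 0.0204 to 0.222). The summed linear intensity of the T cell markers was 3277 to 9895 on the K14ΔNLef1 arrays and 2987 to 4752 on the wild type arrays, and that of the NK cell markers was 1439 to 3425 on the K14ΔNLef1 arrays and 1233 to 1640 on the wild type arrays. No marker has a value of 0, which does not show detection, since an exponentiated log2 value is never 0. The part of lymphocytes in the values of Il12rb2 was not tested.

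**Figure D5:**
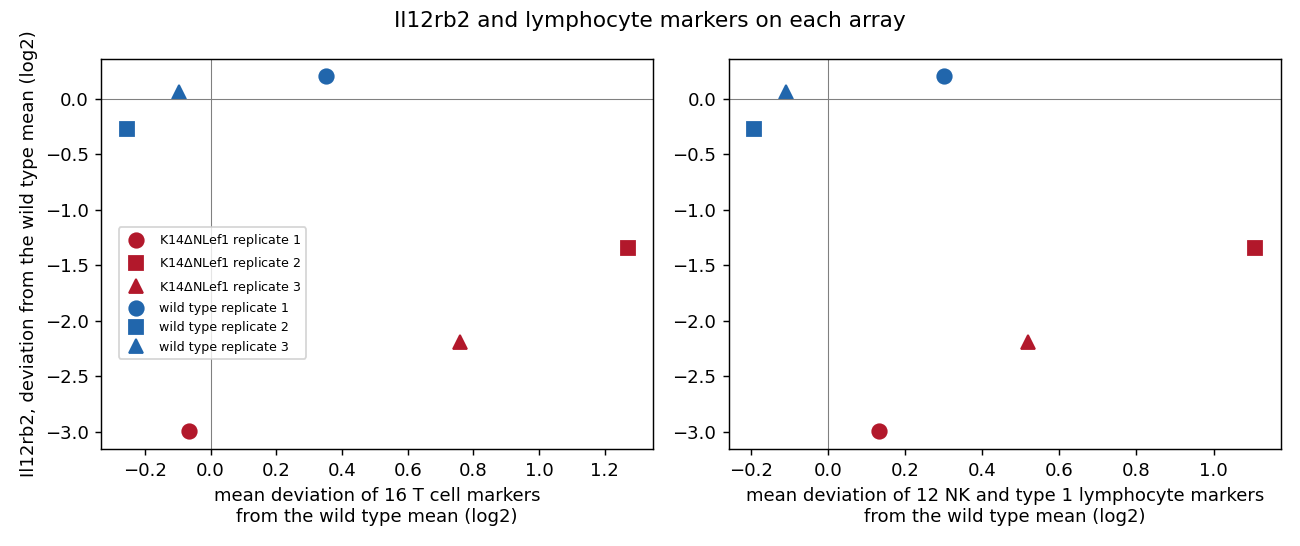
Il12rb2 gene value against the mean of 16 T cell markers (left) and of 12 NK cell and type 1 lymphocyte markers (right), both as deviations from the wild type mean on the log2 scale, with K14ΔNLef1 arrays in red and wild type arrays in blue. Within each colour the arrays run in the same order on both axes, and every red point lies below every blue point. Lists of other genes share the order of the red points, and the orders were not tested.

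Langerhans cell and antigen presentation markers, from cells that can express Il22ra2 and Il10ra, were also uneven. They averaged 0.18, 1.40 and 0.71 relative to the wild type mean on the K14ΔNLef1 arrays, against 0.45, -0.42 and -0.03 on the wild type arrays, with all 11 measured higher and none past the test (3 at an unadjusted p under 0.05, limma, where 11.8% of all genes were). Their summed linear intensity was 1656 to 5587 on the K14ΔNLef1 arrays and 1041 to 2223 on the wild type arrays. Il22ra2 was lowest on K14ΔNLef1 replicate 1 and highest on replicate 3, an order these markers do not share. The keratinocyte markers do share it. They averaged -0.64, -0.29 and -0.08 relative to the wild type mean on the K14ΔNLef1 arrays, against -0.05, -0.001 and 0.05 on the wild type arrays. The median intensities of K14ΔNLef1 arrays 1, 2 and 3 (154.2, 190.0 and 203.2) had this order too. So did the mean of the partner and sister subunits on these arrays. Nothing is read from an order of 3 arrays. Median differences were 0.21 for macrophage, monocyte and neutrophil markers, 0.13 for fibroblast markers, 0.09 for endothelial markers and 0.33 for melanocyte markers. None of the 11, 10, 8 and 7 measured in these lists passed the test, where 1.16% of all genes did. An unadjusted p under 0.05 (limma) was found in 0, 3, 0 and 3, where 11.8% of all genes had one. Of the 3 fibroblast markers 2 were higher and 1 lower, and all 3 melanocyte markers were higher. The part of these cells in the receptor values was not tested.

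The genes whose profiles over the 6 arrays were most like those of the 3 receptors were found by the root mean square (RMS) difference between profiles, each centred on its own mean. Nearest to Il20ra were Sema3d, a guidance factor (RMS 0.247), Il1r2, a decoy receptor of Il1 (0.292), and Serpinb2, a protease inhibitor (0.313). Sema3d was at 5.55, 6.16 and 5.67 on the K14ΔNLef1 arrays, against 9.43, 9.33 and 9.22 on the wild type arrays. Nearest to Il22ra2 were Prss23, a serine protease (0.292), Gipc2, a scaffold protein (0.373), and Fam81a (0.373). Prss23 was at 7.53, 7.65 and 7.70 on the K14ΔNLef1 arrays, against 9.46, 10.12 and 10.29 on the wild type arrays. Nearest to Il12rb2 were Sema3c, another guidance factor (0.239), Chl1, a cell adhesion molecule (0.246), and Scin, an actin-severing protein (0.252). Sema3c was at 7.69, 8.58 and 8.32 on the K14ΔNLef1 arrays, against 10.43, 10.16 and 10.40 on the wild type arrays. All 9 were lower in K14ΔNLef1, which the measure favours since the genotype difference is most of each profile. The 3 receptors were farther from each other. The RMS was 0.642 between Il22ra2 and Il12rb2, 0.769 between Il20ra and Il22ra2 and 0.834 between Il20ra and Il12rb2. Nothing is read from this, since the nearest profiles are the closest of all genes and the receptors were picked on the genotype difference.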

How the data were processed

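Per the submitters' processing notes, the deposited values were made with RMA and Affymetrix Power Tools on the mm9 build (versions not given here). Each probe set has 1 linear intensity per array in the authors' deposited table. The log2 of 100% of the values has 5 decimals to within 1e-08, so they look like exponentiated log2 values, and log2 was taken first. Of 114330 probe sets, 109751 had 1 symbol in the platform annotation, 834 had several and 3745 had none listed. Those with 1 symbol were used, and 1228 older symbols were updated through the GRCm38.p6 gene table, which also gave gene order. Gene values were means of probe sets, with no filter on low values, compared by lmFit and eBayes of limma 3.58.1, run in R 4.3.3 (two-sided tests, Benjamini-Hochberg over 11280 genes, threshold 0.05), after a check on simulated data. The number of arrays limits precision. Tables were joined with pandas 2.3.3 under Python 3.11.15, and figures were drawn with matplotlib 3.10.9.

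The receptor genes and all lists were chosen with earlier results of these data known. Named genes are the 10 receptor genes, Lef1, in each list the 4 that passed with the largest difference or else the 2 with the smallest p, the 3 nearest profiles per receptor, and the 2 nearest measured genes on either side. Other genes are named from the receptors' known partners or after their values were seen, as stated beside them. The alternatives tried are given in the closing section.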

Additional observations from a re-analysis of the deposited data

How the results depend on the processing

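The differences of Il20ra, Il22ra2 and Il12rb2 stayed negative under all 15 alternatives, at -3.96 to -3.16, -3.13 to -2.08 and -2.59 to -1.48, or 8.96-fold to 15.5-fold, 4.22-fold to 8.77-fold and 2.798-fold to 6.04-fold lower. The outer values came from the median of the probe sets (Il20ra -3.96, Il22ra2 -3.13), their brighter members alone (Il20ra -3.16), array weights (Il12rb2 -1.48), and leaving out K14ΔNLef1 replicate 1 (Il22ra2 -2.08) or replicate 2 (Il12rb2 -2.59). These genes were picked on this comparison and these arrays, so nothing is read from the constant sign. Leaving out dim genes, trend and robust eBayes settings and both blocks gave the same differences as the main fit and could not change them. Among the other subunits none passed, except Ifngr1 and Il10rb with array weights (2 subunits, limma adjusted p of 0.00641 and 0.0429). Array weights also gave 598 genes higher and 698 lower, and 10 listed pathway genes. The adjusted p of Ifngr1 was 0.00641 to 0.473 over all alternatives. As deposited 37 genes rose and 94 fell. When the array medians were made equal 103 rose and 133 fell, with quantile normalization 89 rose and 112 fell, and at an adjusted p of 0.1 71 rose and 165 fell. The median difference of all genes was -0.05 as deposited, 0.05 with equal medians and 0.06 after quantile normalization. Samples with the same replicate number did not deviate together (correlations of -0.16, -0.17 and 0.04). For samples with adjacent numbers in the descriptions the correlations were 0.20, -0.01 and -0.07. With 3 arrays per genotype, such correlations cannot settle whether samples were paired. With a replicate block 26 rose and 49 fell, and with a block of adjacent numbers in the descriptions 30 rose and 61 fell. Il18rap did not pass with the replicate block (limma adjusted p of 0.158) or with adjacent numbers (0.132). Gipc2, at an adjusted p of 0.0511, passed with the replicate block (0.0406), the median of the probe sets, equal medians, quantile normalization, trend and robust eBayes settings, array weights and without wild type replicate 1 (0.00415 to 0.041). With 1 array left out, 8 to 115 genes rose, the most without K14ΔNLef1 replicate 1, and 18 to 124 fell. The partner subunits gave 0 to 0 calls and the listed pathway genes 0 to 2 there. Of 88 pathway genes 0 passed and 11 had an unadjusted p under 0.05 (limma), where 1.16% and 11.8% of all genes did. Il4ra passed with the median of the probe sets (1 gene), and Il4ra and Il2ra with equal medians or quantile normalization (2 genes each). Il4ra alone passed at an adjusted p of 0.1 (1 gene). Il2ra and Cxcl9 passed without K14ΔNLef1 replicate 1, and Irgm2 without replicate 2. Among the nearest profiles, Sema3c, Chl1 and Scin did not pass in some fits with 1 array left out (adjusted p of up to 0.122). The causes were not tested.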
